A study of Homo sapiens with 14 samples.

Results

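HMGB2 was depleted with siRNA in IMR90 cells, primary human fetal lung fibroblasts. Poly(A)-selected RNA was sequenced from the depleted cells and from wild-type (WT) cells. The comparison takes 4 of the 14 samples of the series, 2 WT and 2 HMGB2 knockdown (HMGB2 KD) libraries, chosen by the genotype in their labels and by their raw count files. All 4 come from cells grown to near-confluence and lysed on the plate. Which isolate of these cells the libraries came from is not stated, nor whether WT cells received a control siRNA or transfection reagent. Nor is it stated whether replicates are separate cultures, so the p-values measure only the spread between these libraries.

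HMGB2 is a high-mobility-group protein of chromatin that bends DNA through a pair of HMG boxes, is abundant in proliferating cells and falls as cells enter senescence. Lung fibroblasts build and remodel the matrix around them, can take on contractile filaments as myofibroblasts, and secrete growth factors, proteases and inflammatory mediators. The comparison asks which of their transcripts differ when HMGB2 is depleted.

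The libraries held between 33561766 and 41168932 counts on genes. Levels are given as CPM, the counts divided by the library's total and brought to a common scale, with TMM, edgeR's correction for composition. They are not divided by transcript length and are compared only within a gene. HMGB2 itself (chromosome 4, 174252527 to 174255583 of GRCh37) stood at 27.1 and 27.3 CPM in WT, against 3.22 and 3.64 CPM after the knockdown, so that all 4 libraries matched their labels. Of 16 fibroblast markers all 16 passed the filter on low counts, with summed levels of 29378 and 37992 CPM in WT, against 45859 and 55889 CPM after the knockdown. Of these markers 5 were called higher and 2 lower. Of 17 epithelial markers 9 were at 0 and 5 passed the filter on low counts, with sums of 58.9 and 54.6 CPM in WT, against 74.9 and 106 CPM after the knockdown, and none was called. The endothelial markers summed to between 78.3 and 95.7 CPM and the immune markers to between 39.1 and 49.9 CPM, and none of these was called either. The markers KRT5, SFTPC and NKX2-1 of epithelium, CDH5 of endothelium and CD3E and MS4A1 of lymphocytes had 0 counts in all 4 libraries. Other markers were counted: of 11 endothelial markers 2 were at 0 and 7 passed the filter, and of 12 immune markers 5 and 2. The 5 epithelial markers that passed all had positive log2 fold changes, from 0.65 to 1.55 (median 0.98).

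Genes were tested with edgeR's quasi-likelihood test and called where the adjusted p was below 0.01 and the log2 fold change was beyond 0.6 in either direction. Of 15338 genes tested, 438 were called higher after the knockdown (2.86%) and 359 lower (2.34%), together 5.20%. The median absolute log2 fold change of the called genes was 0.97, and 375 of the 797 passed 1 on the log2 scale, a change of the level by a factor of 2. Scaled by plain library totals the balance turned to 385 higher and 484 lower, so that 44.3% instead of 55.0% of called genes were higher, with a shift of the median of all genes to -0.06. Calls were few among weakly expressed genes, at 7 of 2607 genes under a mean of 1 CPM, and were most frequent over 100 CPM, at 200 of 1993.

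**Figure D1:**
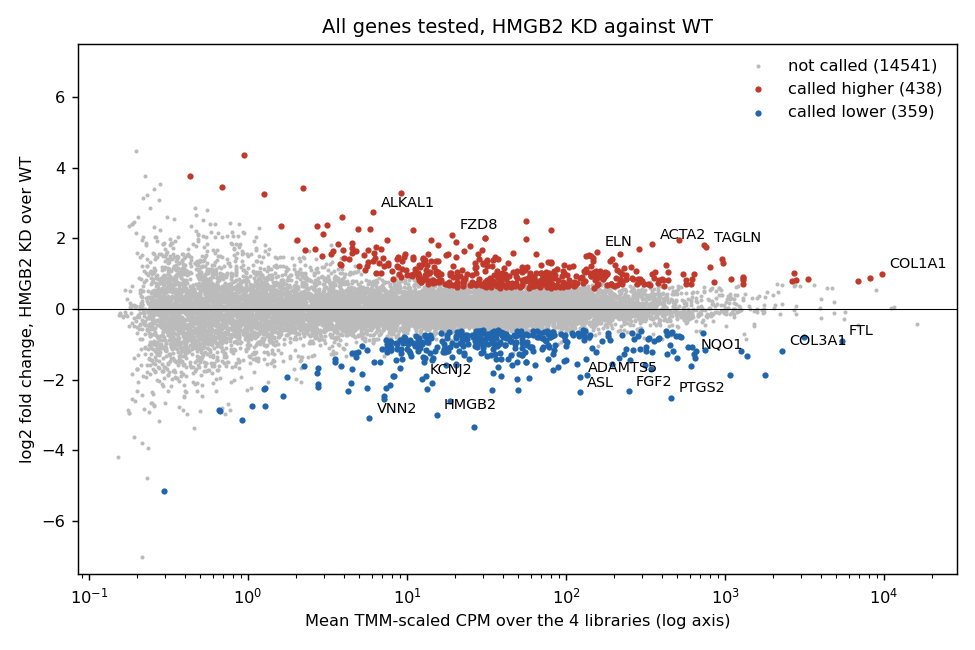
Log2 fold change of HMGB2 KD over WT (vertical axis) against mean level in TMM-scaled CPM (horizontal log axis) for the 15338 genes tested, with 438 called higher in red and 359 called lower in blue. HMGB2 lies among the largest falls, and abundant genes were called in both directions, such as COL1A1 (1.00) and FTL (-0.90).

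Many genes of the contractile apparatus were called higher in HMGB2 KD. Of 29 contractile and actin genes tested, 15 were called higher and 0 lower, and the median log2 fold change was 0.81, against 0.00 over all genes tested. ACTA2 (chromosome 10, 90694831 to 90751096), the smooth muscle alpha-actin that marks myofibroblasts, stood at 105 and 201 CPM in WT, against 462 and 628 CPM after the knockdown. Both knockdown libraries were above both WT libraries, and the WT libraries lay 0.94 apart on the log2 scale. The means were 153 ± 67.9 and 545 ± 117 CPM (SD, n = 2), which is a log2 fold change of 1.83 with an SE of 0.24 (adjusted p 0.00036). TAGLN (chromosome 11, 117070086 to 117078180), transgelin, an actin-binding protein of smooth muscle, had 256 and 444 CPM in WT, against 947 and 1405 CPM after the knockdown, a log2 fold change of 1.75 with SE 0.24 (adjusted p 0.0004). CNN1, the calponin that restrains myosin on actin, rose from 9.87 and 12.6 CPM to 32.2 and 44.6 CPM (1.77, SE 0.18, adjusted p 5.64e-05). In ACTA2, TAGLN and CNN1 WT replicate 1 was the lowest library. The groups did not overlap in these genes, as in all 797 called genes and in 53.8% of all genes tested.

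Actin ACTG2 rose by 1.56 and the tropomyosin TPM1, which lies along the actin filament, by 1.29. LMOD1, which seeds smooth muscle filaments, rose by 1.11. MYOCD, the coactivator of serum response factor (SRF) in smooth muscle, stood at 36.5 and 54.9 CPM in WT, against 75.6 and 84.3 CPM after the knockdown and rose by 0.81 (adjusted p 0.0068). SRF itself was not called, at 78.8 and 86.2 against 74.7 and 106 CPM (log2 fold change 0.13, adjusted p 0.69). The abundant filamin FLNA, tropomyosin TPM4 and myosin MYH9 had log2 fold changes of 0.66, 0.49 and 0.70 and were not called (adjusted p 0.035, 0.058 and 0.011). Of the 15 calls, 8 were kept without WT replicate 1, all 15 without WT replicate 2, 13 without the first HMGB2 KD library and 5 without the second, when the median was 0.61. Without WT replicate 1, LMOD1 was at 0.73 and not called. MYOCD was called only without WT replicate 2 among these fits, with log2 fold changes of 0.54 to 1.13 over the 4 of them. ACTA2 overlaps its antisense ACTA2-AS1, which was also called higher, and TAGLN overlaps PCSK7. Since the use of strand is not stated, their reads cannot be told apart, and reads of the near-identical actins ACTA2, ACTG2 and ACTG1 may be split between them.

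SRF is known to act through the CArG box, a run of A and T between CC and GG. On either strand, an exact CArG box lay within 250 bases before a RefSeq start site for 10 of the 25 contractile genes in the promoter table and for 1.51% of the 11315 genes tested that the table holds. Of the 15 called contractile genes 12 are in the table, and 4 of them held the box. That is 33.3%, against 40.0% of the contractile genes in the table, so the box was no more frequent among the called ones. The list was written from textbook knowledge, so its share describes the list and not the knockdown. These 4 promoter stretches are shown because their genes were called higher, as RefSeq gives them on GRCh38.p14, all on the plus strand, with the CArG box in capitals.
ACTG2: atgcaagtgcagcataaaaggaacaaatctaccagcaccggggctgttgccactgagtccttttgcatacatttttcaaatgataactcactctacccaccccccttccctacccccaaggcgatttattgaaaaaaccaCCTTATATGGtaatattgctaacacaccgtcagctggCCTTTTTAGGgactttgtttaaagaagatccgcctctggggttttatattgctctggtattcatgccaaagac
CNN2: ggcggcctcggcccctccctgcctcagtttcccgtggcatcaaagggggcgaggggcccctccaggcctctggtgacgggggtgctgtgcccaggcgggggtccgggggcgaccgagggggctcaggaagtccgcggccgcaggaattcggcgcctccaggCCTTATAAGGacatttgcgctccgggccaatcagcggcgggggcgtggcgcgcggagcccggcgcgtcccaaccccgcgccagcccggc
SMTN: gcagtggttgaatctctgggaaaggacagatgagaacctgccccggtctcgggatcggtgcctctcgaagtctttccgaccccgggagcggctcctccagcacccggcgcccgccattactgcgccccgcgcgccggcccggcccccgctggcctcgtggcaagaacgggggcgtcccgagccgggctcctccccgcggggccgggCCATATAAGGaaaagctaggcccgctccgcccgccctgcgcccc
TGFB1I1: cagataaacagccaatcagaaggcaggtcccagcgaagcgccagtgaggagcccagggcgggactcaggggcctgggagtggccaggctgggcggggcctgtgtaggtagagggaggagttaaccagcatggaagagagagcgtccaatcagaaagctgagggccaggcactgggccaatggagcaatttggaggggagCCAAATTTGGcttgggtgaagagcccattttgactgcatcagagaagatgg

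The stretches lie at chr2:73892758-73893007 for ACTG2, chr19:1026358-1026607 for CNN2, chr22:31084746-31084995 for SMTN and chr16:31472955-31473204 for TGFB1I1. The boxes start 110 and 73 bases before the start site in ACTG2, 89 in CNN2, 44 in SMTN and 51 in TGFB1I1. CNN2, another calponin, had 262 and 308 CPM in WT, against 480 and 694 CPM after the knockdown (log2 fold change 1.04), and TGFB1I1, the focal adhesion protein Hic-5, 80.7 and 90.8 against 158 and 196 CPM (1.04). SMTN, smoothelin, had 47.3 and 52.1 against 68.5 and 97.4 CPM (0.74). The uncalled ACTN1, FLNA, LDB3, MYLK, SRF and TPM4 held the box as well. Among promoters of all genes called higher 4.91% held it and of genes called lower 2.09%. A match is a description of the sequence and not evidence of binding.

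Genes that lay down and crosslink the matrix were called in 1 direction. Of 28 elastic fibre and crosslinking genes tested, 10 were called higher and 0 lower (median log2 fold change 0.52). ELN (chromosome 7, 73442119 to 73484237), which encodes elastin, stood at 68.1 and 86.3 CPM in WT, against 199 and 277 CPM after the knockdown. The means were 77.2 ± 12.9 and 238 ± 54.7 CPM (SD, n = 2), which is a log2 fold change of 1.62 with SE 0.17 (adjusted p 7.57e-05), with the groups well apart. LOXL2, a lysyl oxidase that crosslinks collagen, had 473 and 560 CPM in WT, against 1230 and 1550 CPM after the knockdown (1.43, SE 0.16, adjusted p 0.00012). The microfibril gene MFAP2 rose by 1.30, the fibulin FBLN2 by 1.07, LTBP2 by 1.06 and P4HA2, a prolyl hydroxylase of collagen, by 1.02. TGM2, a transglutaminase that crosslinks matrix proteins, was not called, at 607 and 759 CPM in WT, against 688 and 771 CPM after the knockdown. Of the 10 calls, 7, 10, 6 and 6 were kept without WT replicates 1 and 2 and HMGB2 KD replicates 1 and 2 in turn.

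Collagens moved both ways. Of 30 tested, 6 were called higher and 3 lower (median 0.49). COL1A1, the main chain of type I collagen, had 4993 and 7924 CPM in WT, against 11154 and 14686 CPM after the knockdown, a log2 fold change of 1.00 with SE 0.21 (adjusted p 0.0064). Its partner chain COL1A2 had 6260 and 8231 CPM in WT, against 9634 and 11414 CPM after the knockdown and was not called (0.54, adjusted p 0.056). COL3A1, the fibrillar collagen that accompanies type I, went the other way, from 2811 and 3521 CPM to 1331 and 1465 CPM (-1.18, SE 0.16, adjusted p 0.00038). The libraries of the groups did not overlap in either COL1A1 or COL3A1, as in every called gene. COL5A3 (1.40), COL5A1 (1.20), COL12A1 (1.03), COL15A1 (0.89) and COL6A3 (0.78) were the other collagens called higher, and COL14A1 (-0.99) and COL7A1 (-0.83) the others called lower. The basement membrane chains COL4A1 and COL4A2 were not called (0.59 and 0.28). By the DESeq2 Wald test COL1A1 and COL5A1 lost their calls. Of the 9 calls 6 were kept without WT replicate 1 and 3 without HMGB2 KD replicate 2, when COL1A1 was not called and COL3A1 was.

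Among 26 genes of hyaluronan and proteoglycans, 8 were called higher and 1 lower (median 0.25). The aggrecan gene ACAN (1.37), the syndecan SDC2 (1.00), CSPG4 (0.97) and HAPLN3 (0.97), a link protein, rose. CEMIP, needed to break down hyaluronan, fell from 2396 and 1550 CPM to 952 and 624 CPM (-1.32, SE 0.22, adjusted p 0.0016), while its relative CEMIP2 rose by 0.86. The abundant VCAN, CD44 and DCN were not called (0.04, 0.30 and -0.04). Of the 9 calls 1 was kept without HMGB2 KD replicate 2, and CSPG4 was at 0.56. FN1, fibronectin, rose by 0.88, from 5153 and 6414 CPM to 9428 and 11817 CPM (adjusted p 0.0038), and was not called without that library.

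Proteases of the matrix and their inhibitors split, with 7 of 42 called higher and 8 lower. ADAMTS5 (chromosome 21, 28290241 to 28339407), an aggrecanase, had 192 and 198 CPM in WT, against 63.2 and 39.1 CPM after the knockdown, a log2 fold change of -1.93 with SE 0.19 (adjusted p 4.48e-05). ADAMTS2, which trims the end of procollagen, had 68.8 and 91.7 CPM in WT, against 194 and 239 CPM after the knockdown, a change of 1.43 in the other direction (SE 0.16, adjusted p 0.00011). PLAT, the tissue plasminogen activator, fell from 4162 and 3743 CPM to 2469 and 2087 CPM (-0.80, SE 0.15, adjusted p 0.0041). In these 3 genes, as in every called gene, the lowest library of the higher group lay above the highest of the lower group. The collagenase MMP1 had 782 and 431 CPM in WT, against 282 and 218 CPM after the knockdown (-1.28), and the stromelysin MMP3 303 and 122 against 86.5 and 29.4 CPM (-1.88). Their size depended on the library: without WT replicate 1, MMP1 was at -0.79 and MMP3 at -1.08, and without HMGB2 KD replicate 1 MMP3 was at -2.87. Neither was called without HMGB2 KD replicate 2, when 7 of the 15 calls remained and PLAT was lost. The urokinase PLAU, the inhibitor TIMP1 and the gelatinase MMP2 were not called (0.48, -0.08 and 0.09).

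**Figure D2:**
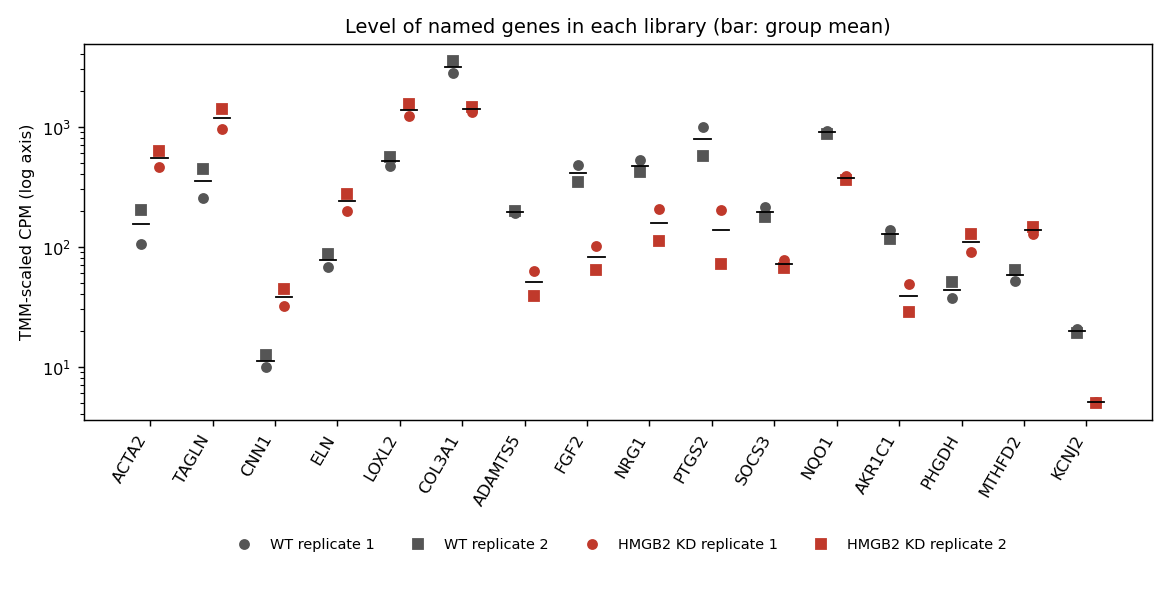
TMM-scaled CPM (log axis) of 16 named genes in each library, WT in grey and HMGB2 KD in red, with circles for replicate 1, squares for replicate 2 and a bar at each group's mean. In every gene shown, all of them called, the 2 WT and the 2 HMGB2 KD libraries do not overlap, as in all 797 called genes. The groups do not overlap in 53.8% of all genes tested. The widest gaps between replicates are those of PTGS2 in HMGB2 KD and ACTA2 in WT.

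Integrins are surface receptors that bind the matrix. Of 19 integrin genes 5 were called higher and 0 lower: ITGA3 (1.23), ITGBL1 (1.04), ITGB3 (0.91), ITGA5 (0.86) and ITGA6 (0.84), of which ITGBL1 is an integrin-like secreted protein. ITGA5, the fibronectin receptor chain, had 429 and 456 CPM in WT, against 711 and 893 CPM after the knockdown. ITGB1, its partner, had 1590 and 1920 against 2900 and 2686 CPM and missed the threshold (0.67, adjusted p 0.011). Of the 5 calls 3 were kept without HMGB2 KD replicate 2, and ITGA5 was not. Among 34 cadherins and other adhesion molecules 5 were higher and 2 lower, with CDH6 at 1.25, CADM1 at 0.91 and TENM3 at 0.82, and with FLRT2 at -1.02 and SLITRK6 at -2.15. All 7 were kept without HMGB2 KD replicate 2 and 5 without WT replicate 1. Among 46 genes of axon guidance 7 were higher and 1 lower, among them the ephrin EFNB2 (1.47), the netrin receptor UNC5B (1.18), PLXND1 (0.86) and NRP1 (0.83), with 2 of the 8 kept without HMGB2 KD replicate 2.

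Secreted growth factors changed in both directions. Of 33 genes listed as ligands of receptor tyrosine kinases 6 were called higher and 5 lower. FGF2 (chromosome 4, 123747837 to 123819391), a mitogen of fibroblasts, stood at 480 and 344 CPM in WT, against 100 and 63.6 CPM after the knockdown, 412 ± 96.1 against 82.0 ± 26.1 CPM (SD, n = 2) and a log2 fold change of -2.33 with SE 0.21 (adjusted p 3.86e-05). FGF2 overlaps NUDT6, which lies antisense to it. NRG1, a ligand of ERBB receptors, had 523 and 421 against 205 and 112 CPM (-1.58, adjusted p 0.00054), EREG, which binds EGFR, 95.5 and 70.0 against 38.2 and 19.8 CPM (-1.51, adjusted p 0.001), and HGF, the ligand of MET, 464 and 414 against 229 and 159 CPM (-1.18). In all of these the WT libraries were the higher pair and HMGB2 KD replicate 2 the lowest library. GAS6 (1.20), CSF1 (0.86), VEGFC (0.81) and PDGFC (0.77) rose. ANGPTL4 (1.22), a secreted protein that is not an established ligand of these receptors, rose too. Of the 11 ligand calls 6 were kept without HMGB2 KD replicate 2, when GAS6, CSF1 and PDGFC were lost, and 8 without WT replicate 1, when CSF1 and PDGFC were lost. PDGFB was called at 2.36 from low levels, with 0.759 and 0.295 CPM in WT, against 2.59 and 2.78 CPM after the knockdown, and of the fits that leave a library out it was called only without WT replicate 1, at 3.17. The abundant FGF7, AREG and VEGFA were not called (-0.84, -0.72 and -0.43).

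In TGF-beta and BMP signalling, 4 of 44 genes were higher and 4 lower. The ligand TGFB1 stood at 131 and 134 CPM in WT, against 241 and 325 CPM after the knockdown, a rise of 1.09 on the log2 scale (SE 0.16, adjusted p 0.00054). FSTL3, a secreted antagonist of activin, had 21.6 and 24.0 against 74.0 and 106 CPM, a rise of 1.98 (SE 0.17, adjusted p 2.22e-05). FST, another activin antagonist, fell instead, from 660 and 545 CPM to 347 and 249 CPM (-1.01, SE 0.17, adjusted p 0.0019). BMP4 (-1.13) and GDF15 (-1.23) fell, and BMP5, outside that list, fell from 10.2 and 8.41 CPM to 2.79 and 1.18 CPM (-2.23, adjusted p 0.00054). The receptor ACVR1 rose by 0.72. Of the 8 calls 5 were kept without HMGB2 KD replicate 2, when FST, GDF15 and LTBP2 were lost, and 7 without WT replicate 1, when ACVR1 was lost. INHBA, which encodes the activin A subunit, was not called, at 609 and 527 CPM in WT, against 710 and 594 CPM after the knockdown, nor was the effector SMAD3 (0.47, adjusted p 0.057).

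Of 17 Notch pathway genes 3 were called higher, the receptor NOTCH3 (1.09), the ligand JAG1 (0.98) and the target HES1, which had 8.62 and 8.54 CPM in WT, against 19.6 and 24.2 CPM after the knockdown (1.35, SE 0.16, adjusted p 0.00017). The median of the 17 was 0.50, and RBPJ, the DNA-binding factor of the pathway, was not called (-0.12). Of 35 WNT pathway genes 2 were called higher and 1 lower, which is 8.57%, against 5.20% of all genes tested. The ligand WNT16 fell from 35.0 and 29.2 CPM to 6.64 and 3.96 CPM (-2.60, SE 0.21, adjusted p 2.19e-05). The receptor FZD8 rose from 7.42 and 7.04 CPM to 22.5 and 39.7 CPM (2.11, SE 0.22, adjusted p 7e-05) and WNT5B by 0.91, a call lost without HMGB2 KD replicate 2, while WNT5A and CTNNB1 were not called (0.32 and -0.11). Of 24 targets of YAP and TEAD, NT5E (0.88), ANKRD1 (0.83), MYOF (0.81), GADD45A (0.73) and CRIM1 (0.73) were called higher. The targets CCN1 and CCN2 were not called (0.42 and 0.39), and 1 of the 5 calls was kept without WT replicate 1 or without HMGB2 KD replicate 2, with 4 and 3 kept without the others.

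Genes of prostaglandin synthesis and of cytokine signalling fell where they were called. The share called was 18.8% of the prostaglandin list, 15.6% of the cytokine receptor list and 17.6% of the interleukin-1 family. In the NF-kB pathway it was 4%, under the 5.20% of all genes tested, so the call there is no result about that pathway. Of 16 prostaglandin and eicosanoid genes 0 were higher and 3 lower (median -0.41). PTGS2 (chromosome 1, 186640923 to 186650054), the inducible cyclooxygenase, stood at 999 and 567 CPM in WT, against 202 and 72.2 CPM after the knockdown. The 4 libraries were spread over a wide range, with means of 783 ± 306 and 137 ± 91.9 CPM (SD, n = 2). As in every called gene the groups did not overlap, and the log2 fold change was -2.51 (SE 0.36, adjusted p 0.00059). PTGES, the prostaglandin E synthase, fell by 1.27 and PLA2G4A, the phospholipase that frees arachidonic acid, by 1.24. PTGS1, the constitutive cyclooxygenase, was not called, at 494 and 501 against 419 and 376 CPM. PTGS2 alone of these 3 remained called without HMGB2 KD replicate 2, and by the DESeq2 Wald test none of the 3 was.

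Of 32 cytokine receptors and regulators of JAK-STAT signalling 5 were called lower. IL6R, the receptor of interleukin-6, had 23.2 and 29.5 CPM in WT, against 8.99 and 8.43 CPM after the knockdown (-1.60, SE 0.16, adjusted p 5.64e-05), and SOCS3, the feedback inhibitor that STAT3 induces, 213 and 176 against 77.5 and 67.0 CPM (-1.43, SE 0.14, adjusted p 5.64e-05). LIF had 880 and 553 CPM in WT, against 320 and 230 CPM after the knockdown (-1.38), IL24 229 and 123 against 82.5 and 36.2 CPM (-1.57), and IL13RA2 30.6 and 13.4 against 6.75 and 2.51 CPM (-2.25). IL6R and SOCS3 were called in every fit with a library left out, while LIF, IL24 and IL13RA2 were not called without HMGB2 KD replicate 2. IL6ST, the signalling chain that the receptors of interleukin-6 and LIF share, and JAK1 were not called (0.56 and 0.06). Of 17 genes of the interleukin-1 family IL18R1 (-1.21), IL1R1 (-0.77) and CASP1 (-0.74) were called lower and none of the 3 without HMGB2 KD replicate 2. Of 25 NF-kB pathway genes TRAF3 was called lower (-0.63), a call lost without WT replicate 1, WT replicate 2 or HMGB2 KD replicate 2, and TNFAIP3 was not called (-0.72, adjusted p 0.033).

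Many genes that the oxidative stress factor NRF2 is known to switch on were called lower in HMGB2 KD. Of 29 tested 12 were called lower and 1 higher, 27 had a negative log2 fold change, and the median was -0.59. NQO1 (chromosome 16, 69740899 to 69760571), a quinone reductase and a textbook target, stood at 925 and 865 CPM in WT, against 386 and 360 CPM after the knockdown. Replicates were close, at 895 ± 42.7 and 373 ± 18.1 CPM (SD, n = 2), and the log2 fold change was -1.26 (SE 0.14, adjusted p 0.00011). AKR1C1, an aldo-keto reductase, fell from 137 and 117 CPM to 48.8 and 28.6 CPM (-1.71, SE 0.20, adjusted p 0.00014) and its neighbour and near-identical relative AKR1C2 by 1.51. Reads may be split between AKR1C1 and AKR1C2. FTL, the light chain of the iron store ferritin, had 7525 and 6569 against 3831 and 3746 CPM (-0.90, SE 0.15, adjusted p 0.0015). The thioredoxin system fell in TXN (-0.83), TXNRD1 (-0.68) and SRXN1 (-0.73), the cystine importer SLC7A11 by 0.74 and the pentose phosphate enzyme PGD by 0.66. HMOX1, the heme oxygenase, rose instead, from 50.9 and 53.2 CPM to 90.7 and 110 CPM (0.95, SE 0.13, adjusted p 0.0005). The ferritin heavy chain FTH1, PRDX1 and AKR1B1 were not called (-0.45, -0.21 and -0.29). Without HMGB2 KD replicate 2 the median was -0.64 and 5 genes were called lower, and HMOX1 stayed called higher. Without each of the other libraries in turn 10 of the 13 calls were kept, with the losses only partly the same. TXNRD1 was called in none of the 4 fits that leave a library out, at -0.69 to -0.67, while SRXN1 was lost without WT replicate 1 and TXN and FTL without HMGB2 KD replicate 2.

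The stress factor ATF4 drives genes of serine and one-carbon metabolism and of amino acid import. Of 27 genes of the integrated stress and amino acid response 11 were called higher and 2 lower (median 0.34). PHGDH (chromosome 1, 120191034 to 120286841), the enzyme that starts serine synthesis, had 37.4 and 50.4 CPM in WT, against 90.3 and 129 CPM after the knockdown (1.32, SE 0.18, adjusted p 0.00039). PSAT1, the next enzyme, rose by 1.07 and PSPH, the last, by 0.89. MTHFD2, of the mitochondrial folate cycle, had 51.6 and 63.6 against 128 and 146 CPM (1.25, SE 0.14, adjusted p 0.00011). ALDH1L2, of the same cycle, had 15.1 and 30.9 against 56.6 and 81.7 CPM (1.59, SE 0.26, adjusted p 0.0013), with a wide gap between the WT libraries. The transporters SLC7A1 (1.01) and SLC7A5 (0.92), and outside that list SLC1A4 (1.57) and SLC6A9 (1.25), rose. SLC6A9 was at 0.83 and not called without HMGB2 KD replicate 2. ATF4 itself was not called, at 341 and 351 CPM in WT, against 414 and 435 CPM after the knockdown, and neither was ASNS, asparagine synthetase, which was counted weakly, with means of 0.852 (WT) and 1.03 CPM (HMGB2 KD). CEBPB (-0.79) and SLC7A11 were the 2 called lower. With HMGB2 KD replicate 2 left out, 5 of the 11 were called higher and neither of the 2 lower.

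Of the called genes of this response, 9 are in the promoter table, and 3 held the core letters TGATGNAAN of the amino acid response element on either strand, against 2.41% of all genes tested. The core TGACNNNGC of the antioxidant response element, through which NRF2 acts, lay before 4 of the 20 NRF2 targets in the table. It lay before 1814 of the 11315 genes tested, 4 of the 25 contractile genes and 6 of the 21 genes of the amino acid response. This core was therefore common and did not set the NRF2 targets apart. Matches to either core describe the sequence and are not evidence of binding. CHAC1 (118 and 123 against 203 and 260 CPM) and CEBPG (24.4 and 26.5 against 46.1 and 52.5 CPM) are shown as genes that rose by 0.94 and 0.95, and TXNRD1 (894 and 906 against 557 and 567 CPM) as one called lower with all 4 libraries only, with the core in capitals on the plus strand of GRCh38.p14.
CHAC1: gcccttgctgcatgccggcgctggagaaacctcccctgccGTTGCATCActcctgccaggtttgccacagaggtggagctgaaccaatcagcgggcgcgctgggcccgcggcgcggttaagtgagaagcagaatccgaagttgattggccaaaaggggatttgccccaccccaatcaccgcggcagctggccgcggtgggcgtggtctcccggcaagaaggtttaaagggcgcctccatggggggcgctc
CEBPG: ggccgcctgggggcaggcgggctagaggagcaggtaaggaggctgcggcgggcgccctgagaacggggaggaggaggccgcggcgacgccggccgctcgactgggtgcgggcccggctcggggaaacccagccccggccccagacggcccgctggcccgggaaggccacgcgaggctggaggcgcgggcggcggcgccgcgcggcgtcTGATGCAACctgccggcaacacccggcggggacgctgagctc
TXNRD1: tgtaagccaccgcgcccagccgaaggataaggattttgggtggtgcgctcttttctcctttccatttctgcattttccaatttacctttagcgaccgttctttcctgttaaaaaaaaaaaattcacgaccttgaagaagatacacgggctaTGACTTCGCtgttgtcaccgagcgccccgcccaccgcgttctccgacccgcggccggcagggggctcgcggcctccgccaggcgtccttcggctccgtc

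The stretches lie at chr15:40953221-40953470 for CHAC1, chr19:33373863-33374112 for CEBPG and chr12:104215529-104215778 for TXNRD1, and the cores start 210, 42 and 99 bases before the start site.

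**Figure D3:**
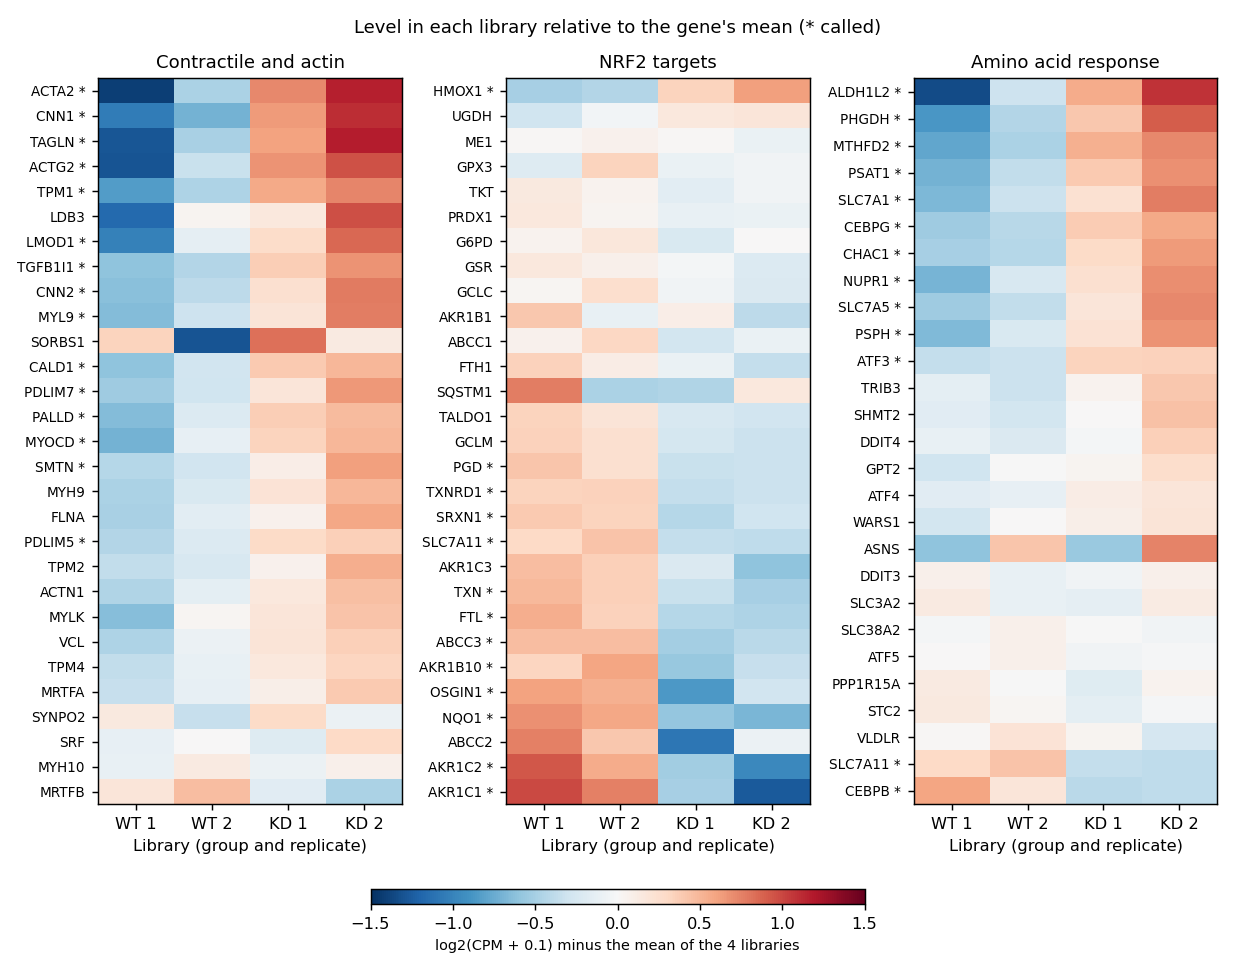
Level of each tested member of the contractile, NRF2 and amino acid response lists in the 4 libraries, as log2(CPM + 0.1) minus the gene's mean over the libraries, with an asterisk on called genes. The summed level of the contractile genes runs from 10874 CPM in WT replicate 1 to 23434 CPM in HMGB2 KD replicate 2, and that of the NRF2 targets from 22436 CPM in WT replicate 1 down to 13114 CPM in HMGB2 KD replicate 2.

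Carriers, channels and lipid genes also changed. Of 221 solute carriers 7 were called higher and 15 lower, which is 9.95%, against 5.20% of all genes tested. SLC40A1, ferroportin, the exporter of iron, stood at 57.2 and 56.8 CPM in WT, against 24.4 and 18.6 CPM after the knockdown (-1.41, SE 0.15, adjusted p 7.57e-05), and SLC35B4, a nucleotide sugar carrier, at 41.6 and 40.6 against 17.5 and 17.2 CPM (-1.25, SE 0.13, adjusted p 7.83e-05). The groups were far apart in both, and the replicates of SLC35B4 were nearly equal. Among 40 potassium channel genes 4 were higher and 3 lower: KCNH1, a voltage-gated channel, rose from 1.64 and 2.38 CPM to 7.68 and 11.6 CPM (2.25), and KCNJ2 (chromosome 17, 68164814 to 68176185), an inward rectifier, fell from 20.6 and 19.2 CPM to 5.05 and 5.02 CPM (-1.98, SE 0.16, adjusted p 2.22e-05). The chloride channels ANO1 and CFTR, outside those lists, moved apart, with ANO1 at 8.70 and 15.9 against 38.0 and 61.8 CPM (2.02) and CFTR at 12.6 and 11.7 against 2.62 and 1.76 CPM (-2.47). Of 32 fatty acid genes 3 were higher and 2 lower. FABP4 (2.13) and FABP5 (0.72), which carry fatty acids in the cytosol, rose, and the uptake receptor CD36 fell from 25.3 and 21.5 CPM to 6.83 and 4.11 CPM (-2.10, SE 0.21, adjusted p 5.6e-05). ACSL4, which activates polyunsaturated fatty acids, fell from 1870 and 1497 CPM to 587 and 339 CPM (-1.86, SE 0.22, adjusted p 0.00017). FABP5 was called in none of the fits that leave a library out and FABP4 not in the fit without HMGB2 KD replicate 2. Of the 22 solute carriers 8 were kept as called without HMGB2 KD replicate 2 and at least 19 without each of the others.

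Some regulators of transcription and of the cell cycle were called. The share called ran from 3.57% of the chromatin architecture and Polycomb list to 26.7% of the HMG genes, HMGB2 included. Over all genes tested it was 5.20%. The chromatin list and the cyclins, kinases and inhibitors (5.71%) were near or under that share, so their calls are no result about those families. Of 55 forkhead, T-box, SOX and GATA genes and TCF21, 3 were higher and 4 lower. TCF21, a factor of lung mesenchyme, had 347 and 308 CPM in WT, against 153 and 120 CPM after the knockdown (-1.26, SE 0.15, adjusted p 0.00018). GATA6 rose from 6.19 and 8.04 CPM to 16.4 and 20.9 CPM (1.39, adjusted p 0.00035), and FOXC2 by 1.44, which was not called without HMGB2 KD replicate 2. TBX2 and FOXF1, of lung fibroblasts, were not called (-0.04 and -0.17). Of 20 circadian genes 3 were higher, BHLHE40 (1.39), NPAS2 (1.02) and ARNTL2 (0.66), and TEF was lower (-0.93). The call of ARNTL2 was lost in every fit that leaves a library out, and that of TEF without WT replicate 2 or HMGB2 KD replicate 1. Of 43 immediate early genes 3 were higher and 2 lower. NR4A2, an orphan nuclear receptor, fell from 312 and 268 CPM to 122 and 73.4 CPM (-1.57, SE 0.20, adjusted p 0.00025), while KLF10 rose by 0.79. Of 35 cyclins, their kinases and inhibitors CDK6 (1.03) and the inhibitor CDKN2B, which had 19.9 and 18.2 against 42.9 and 45.5 CPM (1.21, SE 0.14, adjusted p 0.00011), were called higher, both in every fit with a library left out. Of 15 HMG genes HMGN3 (-0.83) and TFAM (-0.84), which packs mitochondrial DNA, fell beside HMGB2, and HMGA2 rose (0.72), a call lost without WT replicate 2 or HMGB2 KD replicate 2. Of 56 genes of chromatin architecture and Polycomb CBX6 fell (-0.76) and CBX1, a heterochromatin protein, rose (0.61), which was called only without HMGB2 KD replicate 1 among those fits. CBX6 was not called without that library, and TFAM not without HMGB2 KD replicate 2.

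Several families held no called gene in this fit, where 5.20% of all genes tested were called. None of 18 HOX genes, 75 ribosomal protein genes, 41 proteasome subunits, 5 metallothioneins or 16 replication histone genes was called by edgeR. At that share, 0 calls are unremarkable in lists of 5, 16 or 18 genes. Of the 66 replication histone genes listed only these 16 passed the filter, with sums of 88.4 to 110 CPM. These poly(A)-selected libraries therefore say little about that family. The ribosomal protein median was -0.11 and the proteasome median -0.08, with sums that were highest in WT replicate 1 for both. Of 77 respiratory chain subunits NDUFA7 (-0.95) and CYCS (-0.67), cytochrome c, were lower, neither of them without WT replicate 1, and of 25 genes of the unfolded protein response CREB3L1, which also activates collagen genes, rose from 57.2 and 85.7 CPM to 167 and 248 CPM (1.54, SE 0.20, adjusted p 0.00034). The chaperones HSPA5, CALR and HSP90B1 were not called (-0.11, 0.04 and -0.01).

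**Figure D4:**
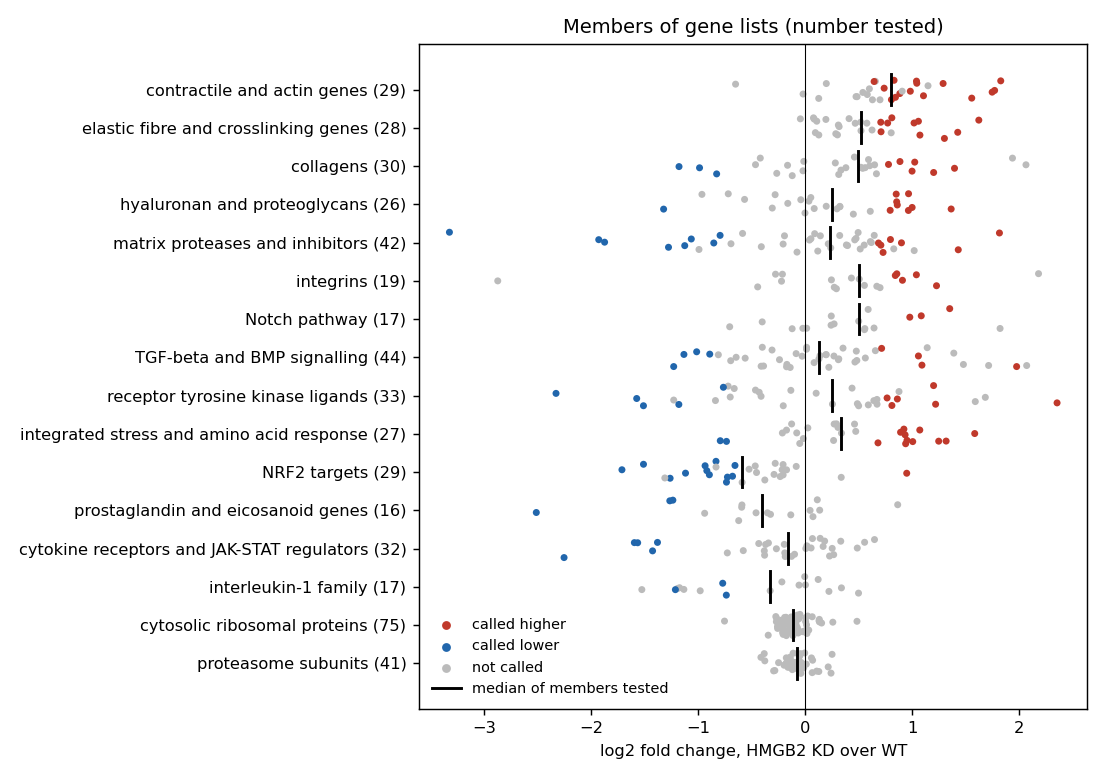
Log2 fold change of HMGB2 KD over WT for the tested members of 16 gene lists, 1 point per gene in red (called higher), blue (called lower) or grey (not called), with a black bar at each list's median. Contractile genes center on 0.81, NRF2 targets on -0.59, and ribosomal protein and proteasome genes lie near 0 with no call.

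Large changes also fell outside the lists above. Of the genes named here, GALNT6 and ADAM19 belong to families that were examined only after the values were seen. Among rises, ALKAL1, a ligand of the ALK receptor, had 1.34 and 1.85 CPM in WT, against 9.21 and 12.1 CPM after the knockdown (log2 fold change 2.73, SE 0.25, adjusted p 3.86e-05). FLT1, a receptor of VEGF, had 11.0 and 13.7 against 46.2 and 53.2 CPM (2.01, SE 0.15, adjusted p 1.56e-05). The protease-activated receptor F2RL1 had 7.62 and 9.67 against 30.5 and 33.6 CPM (1.89). The groups were far apart in each of these. The metalloproteinase ADAM19 rose from 177 and 245 CPM to 665 and 957 CPM (1.94), GALNT6 by 2.23, BAALC by 1.97 and PRR5L by 1.95. Among falls, VNN2, a pantetheinase, had 12.2 and 8.54 CPM in WT, against 1.48 and 0.953 CPM after the knockdown (-3.09, SE 0.28, adjusted p 3.86e-05), and ASL (chromosome 7, 65540787 to 65559684), argininosuccinate lyase of arginine synthesis, 250 and 157 against 44.9 and 34.7 CPM (-2.35, SE 0.20, adjusted p 2.34e-05). RASL11A fell by 2.30 and G0S2, an inhibitor of fat breakdown, by 2.29. All of these genes were called in every fit with a library left out.

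By the size of the difference in CPM, abundant genes led. Among genes called higher, ACTG1 had 2126 and 2613 CPM in WT, against 4079 and 4512 CPM after the knockdown (0.86), THBS1, thrombospondin, 1726 and 2328 against 3350 and 3832 CPM (0.83), and VIM, vimentin, 1753 and 2142 against 3158 and 3539 CPM (0.78). The antisense VIM-AS1 overlaps VIM and was called higher too. Among genes called lower, TFPI2, an inhibitor of proteases, had 3556 and 2052 against 1052 and 482 CPM (-1.87, SE 0.31), SOD2, the mitochondrial superoxide dismutase, 1897 and 1619 against 954 and 590 CPM (-1.19), TM4SF1 987 and 852 against 381 and 222 CPM (-1.61) and RND3, an antagonist of RhoA, 1117 and 958 against 546 and 378 CPM (-1.17). Of these 7 genes only TM4SF1 was called without HMGB2 KD replicate 2, and THBS1 and VIM were called in none of the fits that leave a library out except the fit without WT replicate 2.

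The replicates agreed in direction and differed in size. In all 797 called genes the libraries of the groups did not overlap, as they did not in 53.8% of all genes tested. In 550 of the 797 the nearest pair of a WT and an HMGB2 KD library was over 0.6 apart on the log2 scale. The median gap between replicates of the called genes was 0.19 in WT and 0.25 in HMGB2 KD, against a median absolute log2 fold change of 0.97. HMGB2 KD replicate 2 lay further from the WT mean than replicate 1 in 82.6% of called genes, and in 57.8% of all genes tested. WT replicate 1 lay further from the HMGB2 KD mean than WT replicate 2 in 73.0%, against 55.7%. In 504 of the called genes the libraries ran in the order WT replicate 1, WT replicate 2, HMGB2 KD replicate 1, HMGB2 KD replicate 2 along the direction of the change. Since calls were made on the same libraries, these shares are descriptions.

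Among genes with wide gaps between replicates some large fold changes were called and others were not. IL1B stood at 281 and 157 CPM in WT, against 135 and 56.9 CPM after the knockdown, with a log2 fold change of -1.19 with SE 0.31 (adjusted p 0.025), and WT replicate 2 lay nearer to HMGB2 KD replicate 1 than to its own replicate. CXCL1 overlapped between groups, at 288 and 139 against 157 and 51.5 CPM (-1.04, adjusted p 0.11), as did CSF3, at 14.9 and 5.49 against 6.45 and 1.73 CPM (-1.32, adjusted p 0.099). PDK4, an inhibitor of pyruvate dehydrogenase, did not overlap but had wide gaps, at 79.1 and 52.0 against 38.6 and 16.7 CPM (-1.25, adjusted p 0.012). Among called genes with the widest gaps, CXCL5 had 136 and 50.3 against 36.1 and 12.4 CPM (-1.95, SE 0.42, adjusted p 0.0087), CCL20 16.2 and 8.12 against 3.63 and 0.552 CPM (-2.55) and BCL2A1, an inhibitor of apoptosis, 17.4 and 7.07 against 4.07 and 1.13 CPM (-2.24). Their size rested on single libraries: CXCL5 was at -1.06 without WT replicate 1 and at -2.92 without HMGB2 KD replicate 1, CCL20 at -4.47 without HMGB2 KD replicate 1, and BCL2A1 at -1.45 and -3.44 without these libraries in turn. None of the 3 was called without HMGB2 KD replicate 2.

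The number of calls followed the libraries used. Without HMGB2 KD replicate 2, 312 genes were called, of which 306 were among the 797, which is 38.4% of those. Without HMGB2 KD replicate 1, 999 genes were called and 691 of the 797 were kept, without WT replicate 1 the counts were 548 and 509, and without WT replicate 2 they were 833 and 626. No gene called in the main test changed its sign in any of these fits. As the groups did not overlap in any called gene, this was all but fixed in advance and is no test of their stability. A fit without a library leaves 1 group with a lone sample, which is assumed to vary like the other group.

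**Figure D5:**
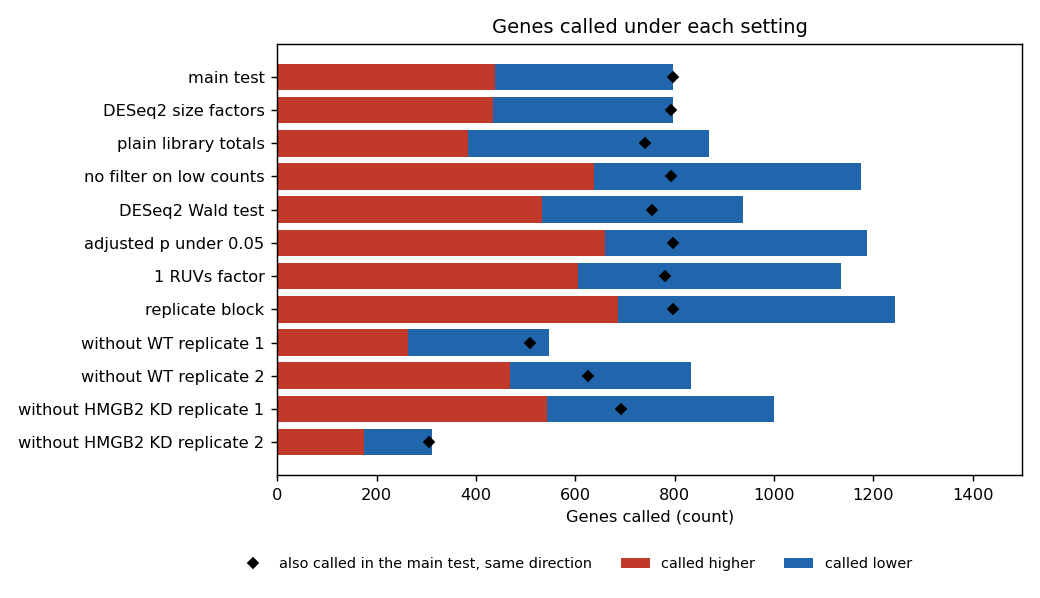
Genes called higher (red) and lower (blue) in the main test and under each other setting, with a diamond at the number that the main test also called in the same direction. The total runs from 312 without HMGB2 KD replicate 2 to 1243 with the replicate number as a block, against 797 in the main test.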

How the data were processed

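Gene-level read counts of poly(A)+ RNA from 2 WT and 2 HMGB2 KD libraries were used as deposited by the authors, 1 table of 54628 gene symbols per library. Per the study's methods and the submitters' processing notes, reads were aligned with STAR 2.6.0c to GRCh37 and counted with featureCounts. The deposited tables also end in 5 summary rows of the kind that htseq-count writes, so the counting program and its use of strand are not settled. These rows, 16.92% to 18.02% of a library's total, were left out. Reads of near-identical genes may therefore have been discarded or split.

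Genes that passed filterByExpr (15338) were tested with edgeR 4.0.16 in R 4.3.3 (quasi-likelihood F test, TMM scaling, no covariate) with Benjamini-Hochberg adjustment, and called where the adjusted p was below 0.01 and the log2 fold change beyond 0.6 in either direction. SE is the log2 fold change divided by the square root of F. On simulated data of 14976 genes, of which 200 were changed by 1.5 on the log2 scale, 73.5% of those were called, with 5 false calls. DESeq2 1.42.0, the scaling, the filter, the threshold, 1 RUVs factor, a replicate block and each left-out library were alternatives. The 4 libraries' totals limit precision at low counts. The labels of the other samples put them in other comparisons, not analysed here, and no other column of per-sample values was present.

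The lists and the rule for named genes were chosen with earlier results of these data known. The rule took the largest rises and falls over a mean of 5 CPM, the largest differences in CPM, up to 6 called and 3 abundant uncalled members of each list, and genes with large gaps between replicates. A few genes that the rule took are not reported here. Other list members, genes next to called genes and genes in the promoter and overlap remarks were chosen after their values were seen. Positions are from GRCh37, and promoter sequences are from RefSeq on GRCh38.p14.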

Additional observations from a re-analysis of the deposited data

How the results depend on the processing

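Scaling, filter and test moved the number of called genes by less than 1.5 times, and HMGB2 was called in every setting, from -3.07 to -2.91 on the log2 scale. An adjusted p under 0.05 gave 659 genes higher, and 1 RUVs factor gave 1134 calls. Leaving out a library gave from 312 to 999 calls, from 174 to 544 higher and from 138 to 455 lower, with the fewest without HMGB2 KD replicate 2. With the replicate number as a block 1243 genes were called, 685 higher and 558 lower, and all 797 were among them. Deviations of same-numbered libraries correlated at 0.12 over genes, but the labels give no shared culture or batch, so the pairing is a number only. Of 224 named genes 82 lost their call without HMGB2 KD replicate 2, 37 without WT replicate 1, 15 without HMGB2 KD replicate 1, 11 without WT replicate 2 and 20 by the DESeq2 Wald test. Only the 178 named genes called in the main test, HMGB2 among them, had a call to lose. Among those lost by the DESeq2 Wald test were COL1A1, COL5A1, ACTG2, LMOD1, MMP1, MMP3, CEMIP, EREG, ALDH1L2, IL13RA2, IL24, IL18R1 and BCL2A1. The cause of the losses was not tested.

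The genes that changed direction were not called in the main test. Under plain library totals VCAN was at -0.029, JAK1 at -0.008 and CALR at -0.03, and with 1 RUVs factor ASNS was at -0.115 and HSP90B1 at 0.042. With a library left out, log2 fold changes ran from -0.141 to 0.345 for SRF, from -0.058 to 0.261 for TGM2, from -0.083 to 0.141 for VCAN, from -0.147 to 0.055 for DCN, from -0.209 to 0.063 for TIMP1, from -0.092 to 0.186 for JAK1, from -0.639 to 0.961 for ASNS, from -0.16 to 0.059 for TBX2, from -0.225 to 0.003 for HSPA5, from -0.03 to 0.097 for CALR and from -0.211 to 0.167 for HSP90B1. With 2 libraries a group, depth of at least 33561766 counts limits weak genes, such as those under 1 CPM, more than abundant ones.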

Other observations

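Gene families examined after the values of these data had been seen gave further members that changed. Of 10 tubulins 5 were higher and 1 lower, among them TUBB2A (1.16), TUBB3 (1.07) and TUBA1A (1.00), while TUBA4A fell (-1.15). Of the 6 tubulin calls 3 were kept without HMGB2 KD replicate 2, when TUBA4A was lost, and 4 without WT replicate 1. Reads may be split between near-identical tubulins. Of 13 transferases that start O-linked glycans 4 were higher, GALNT6 (2.23), GALNT18 (1.24), GALNT10 (0.81) and GALNT1 (0.76). GALNT18 and GALNT10 were not called without HMGB2 KD replicate 2, GALNT10 not without WT replicate 1 and GALNT1 not without WT replicate 2. Of 20 cytosolic aminoacyl-tRNA synthetases, which charge tRNA, GARS1 (1.05) and SARS1 (0.71) were called higher and 18 had a positive log2 fold change (median 0.24), and SARS1 was not called without WT replicate 1 or HMGB2 KD replicate 2. Of 429 genes with ZNF symbols 2 were called, against 5.20% of all genes tested.

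Of 14830 pairs of neighbouring tested genes, in 65 both were called, 49 in the same direction and 16 in opposite directions, and 10 of the 49 overlap. How many such pairs arise without any tie between neighbours was not computed, so these are counts only. Some pairs are related genes, such as AKR1C1 and AKR1C2. ADAT2, a subunit of the tRNA adenosine deaminase, and PEX3, needed to form peroxisomes, are such neighbours. They lie head to head on chromosome 6 of GRCh37, with ADAT2 on the minus strand up to 143771832 and PEX3 on the plus strand from 143771942. ADAT2 had 63.8 and 59.4 CPM in WT, against 19.3 and 14.0 CPM after the knockdown (-1.89, SE 0.16, adjusted p 2.25e-05), and PEX3 55.6 and 51.5 against 18.4 and 12.4 CPM (-1.80, SE 0.17, adjusted p 4.48e-05). These pairs were chosen after their values were seen.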
